A study of Mus musculus with 4 samples.

Results

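Complexes II, III and IV of the mitochondrial respiratory chain were examined through 34 nuclear genes, listed by name for their function. The list was drawn up with earlier results of these data known. They were 4 subunit genes of complex II, 9 of complex III, the gene of the electron carrier cytochrome c, 15 subunit genes of complex IV and 5 genes for the assembly of complex IV, out of 21631 protein-coding genes of the autosomes and the X chromosome. The signal was chromatin immunoprecipitation sequencing (ChIP-seq) of Deaf1 in C2C12, a mouse myoblast line that fuses into contractile myotubes in culture. The 4 samples were 2 of Deaf1 ChIP and 2 of input chromatin, all from C2C12 cells labelled as myocytes and fixed with 1% formaldehyde. The design text calls them differentiated myoblasts, so the stage of the cells is not settled. The inputs and a control IgG named in the protocol were not analysed here. Nothing in the labels tells whether the replicates were separate cultures, and the spread between them may be only technical. There was a single condition, so no comparison between conditions and no test was made, and peak lists hold no expression values with which to check the cell type.

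Complex II, succinate dehydrogenase, passes electrons from succinate to ubiquinone. Complex III passes them on to cytochrome c, and complex IV, cytochrome c oxidase, hands them to oxygen. Several subunits of complex IV exist as isoforms, and in skeletal muscle and heart Cox6a2, Cox7a1 and Cox8b are known to take the places that Cox6a1, Cox7a2 and Cox8a hold in most other tissues. Deaf1 is a transcription factor whose SAND domain binds DNA at TTCG motifs.

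Deaf1 peaks stood at most, but not all, of these genes, and at none of the 3 muscle isoform genes in both replicates. A gene was called occupied where both replicates had a peak summit within 1 kb of the same end of its RefSeq span. By this rule 21 of 34 genes (61.8%) were occupied, beside 51.6% of all protein-coding genes. All 4 genes of complex II were occupied, as were 6 of 9 of complex III, the cytochrome c gene Cycs, 8 of 15 subunit genes of complex IV and 2 of 5 assembly genes. The fold enrichment, which is the authors' own value for the height of each peak over its local background, had a median of 14.0 in replicate 1 and 11.6 in replicate 2 at the occupied genes. The medians over all 11164 occupied genes were 16.4 and 15.2. Taking the lower of each gene's folds, 8 of the 21 lay above the median of all occupied genes (13.9), 2 above the upper quartile (19.2) and 7 below the lower quartile (8.99). Replicate 1 listed 65606 peaks and replicate 2 listed 26503, and read depth is not known from these files. The pileup, the number of fragments over a summit, was recovered from the deposited fold and p. At the 21 genes it ran from 25 to 85 fragments in replicate 1 and from 10 to 84 in replicate 2.

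**Figure D1:**
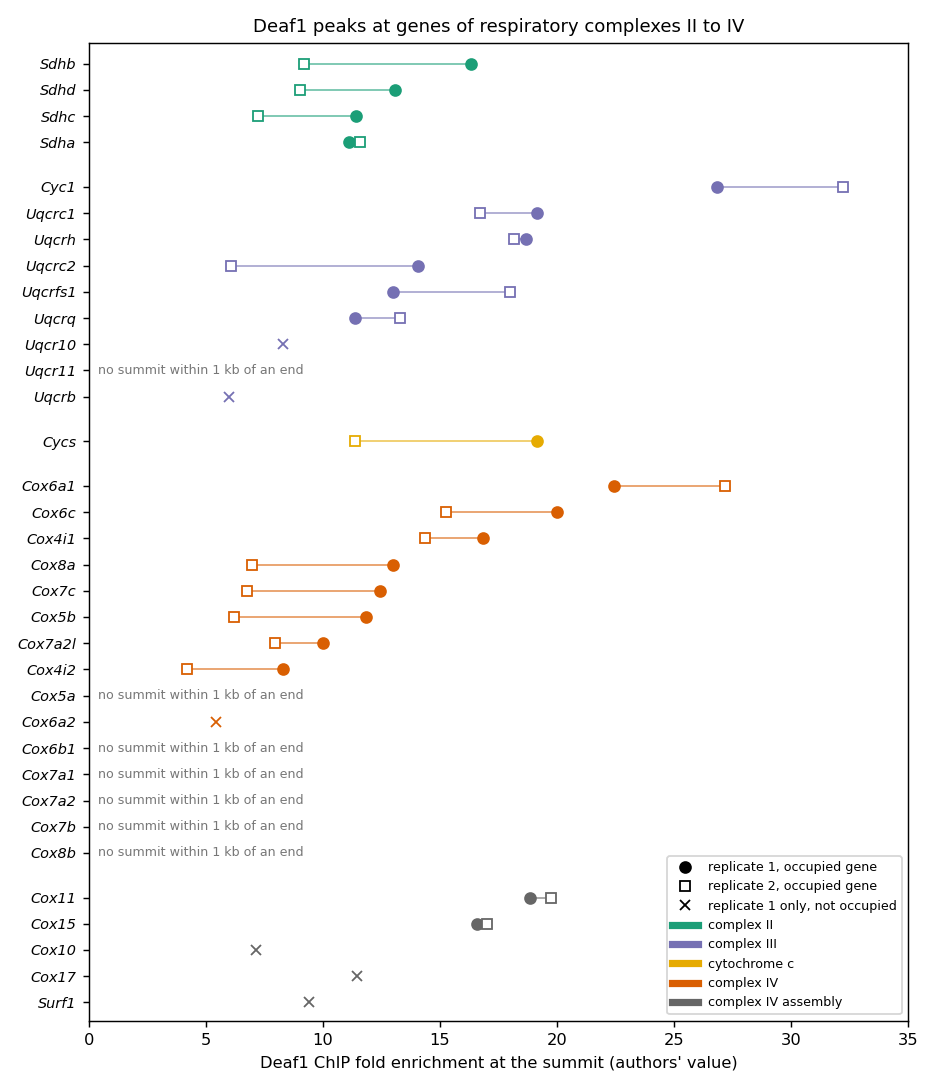
Fold enrichment of the Deaf1 peak at each of the 34 genes, grouped by complex, with replicate 1 as filled circles and replicate 2 as open squares; crosses mark genes with a replicate 1 peak only. Cyc1 and Cox6a1 stand furthest to the right in both replicates, and the lower part of the complex IV block, with Cox6a2, Cox7a1 and Cox8b, holds genes that were not occupied.

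The genes of all 4 subunits of succinate dehydrogenase carried peaks. Sdha, the flavoprotein that oxidises succinate, had folds of 11.1 in replicate 1 and 11.6 in replicate 2. Sdhb, the iron-sulfur subunit, had 16.3 and 9.17. The membrane anchor genes Sdhc and Sdhd had 11.4 and 7.21, and 13.1 and 8.996. Replicate 1 was thus the higher at Sdhb, Sdhc and Sdhd, and at Sdha the replicates were close. None of the 4 reached the median of all occupied genes (13.9) in its lower fold, and Sdhc was also below the lower quartile (8.99). At Sdha the summits lay 24 and 21 bp outside the transcription start, and the end of Ccdc127 was also within reach, 53 and 56 bp from the summits. The Sdhd summits, 165 and 170 bp outside its start, lay nearer to the end of Timm8b, a gene of mitochondrial protein import, at 113 and 118 bp. The Sdhc summits lay 204 and 154 bp inside the gene. At Sdhb they lay 195 and 170 bp inside the start, with no neighbour within reach.

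Complex III held the highest fold of the 34 genes, at Cyc1, which encodes cytochrome c1, the subunit that hands electrons to cytochrome c. On chromosome 15 (span 76343513 to 76346260), both replicates placed the summit at the same base, 137 bp inside the lower-coordinate end. The pileups there were 83 fragments in replicate 1 (95% Poisson interval 66.1 to 103) and 84 in replicate 2 (67.0 to 104), over the lowest background of each list, 2.13 and 1.64 fragments. These intervals cover counting error only. The folds were 26.8 and 32.2, and 98.0% of all occupied genes had a smaller lower fold.

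The core protein gene Uqcrc1 had folds of 19.2 and 16.7 with summits 149 and 150 bp inside its start. It was the single gene of the 34 occupied at both ends, with folds of 8.30 and 4.93 about its finish. Uqcrc2, the other core protein, had 14.0 and only 6.07, from pileups of 43 and 15 fragments. Uqcrh, the hinge protein gene, had folds of 18.7 and 18.2 at summits 475 and 464 bp outside its start. That peak was wide, 1317 and 1174 bp, and the end of Lrrc41 lay nearer to its summits, at 276 and 265 bp. Uqcrq had 11.4 and 13.3, again nearer to a neighbour, the oocyte growth factor gene Gdf9 (194 and 241 bp from the summits, against 251 and 298 bp for Uqcrq).

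At Uqcrfs1, the Rieske iron-sulfur protein gene, the fold was 13.0 in replicate 1 and 17.99 in replicate 2. The pileups ran the other way, 64 and 47 fragments, and the local background was 4.01 in replicate 1 and 1.67 in replicate 2. The order of the replicates at this gene therefore differs between fold and pileup. Its promoter window (RefSeq, GRCm38.p6, 250 bases before to 50 after the start; chr13:30545267-30545566, minus strand) is shown because it held 8 TTCG motifs, the most of the 24 genes with a listed window. That of Cycs (chr6:50566520-50566819, minus strand), also an occupied gene, is set beside it because it held none. At both genes the highest summits lay outside the window. They were 145 and 276 bp inside the start at Uqcrfs1, and 256 and 273 bp outside it at Cycs. The letters of these windows are therefore not those under the highest summits. In these and the windows further on, each 5′ to 3′ along the gene, capitals mark TTCG or its complement CGAA.
Uqcrfs1: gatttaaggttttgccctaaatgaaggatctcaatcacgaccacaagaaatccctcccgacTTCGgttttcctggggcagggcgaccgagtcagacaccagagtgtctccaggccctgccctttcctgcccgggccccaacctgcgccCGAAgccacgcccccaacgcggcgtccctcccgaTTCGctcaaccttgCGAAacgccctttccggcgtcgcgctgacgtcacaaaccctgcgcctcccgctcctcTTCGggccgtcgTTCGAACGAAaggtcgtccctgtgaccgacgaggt
Cycs: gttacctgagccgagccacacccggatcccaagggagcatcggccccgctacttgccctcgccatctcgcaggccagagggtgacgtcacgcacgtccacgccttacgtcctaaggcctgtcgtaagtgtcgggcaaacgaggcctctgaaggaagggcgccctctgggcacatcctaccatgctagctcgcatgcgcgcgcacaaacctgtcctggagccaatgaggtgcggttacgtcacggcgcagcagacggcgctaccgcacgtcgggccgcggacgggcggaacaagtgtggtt

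Cycs, the gene of the soluble carrier between complexes III and IV, had folds of 19.2 in replicate 1 and 11.4 in replicate 2. The pileups were 59 and 29 fragments over the lowest background of each list. Its highest summits lay 256 and 273 bp outside the start. Replicate 2 had another summit 149 bp downstream of it, with a fold of 10.6.

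The remaining 3 genes of complex III were not occupied. Uqcrb had a replicate 1 peak with a fold of 5.99, 279 bp inside its higher-coordinate end, and Uqcr10 had one with 8.30, 119 bp downstream of its start. Replicate 2 had no summit within 1 kb at either. Uqcr11 had none in either replicate, and the nearest summits lay 3059 and 3047 bp beyond its finish.

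**Figure D2:**
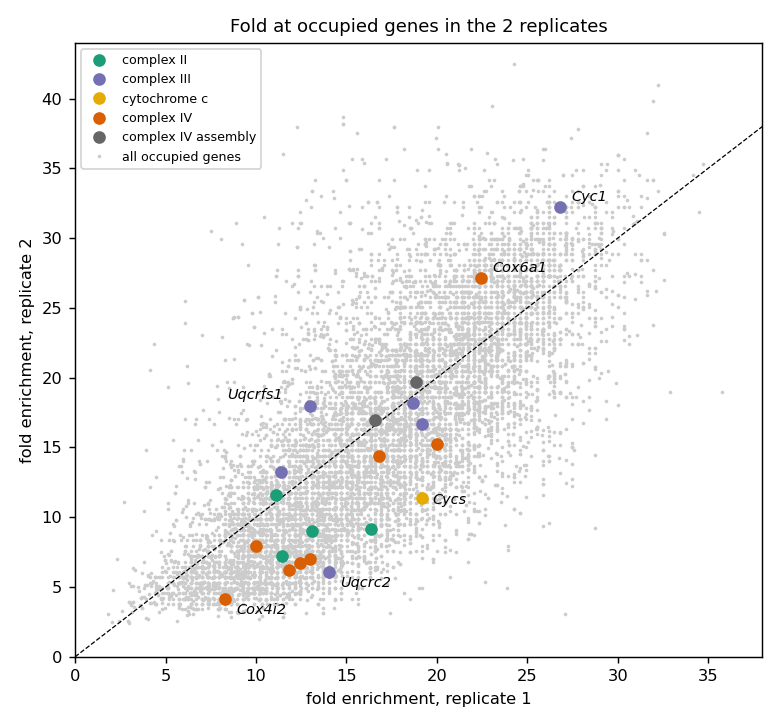
Fold in replicate 1 against fold in replicate 2 at the highest summit of each occupied gene, with genes of complexes II to IV in colour and all occupied genes in grey; the dashed line marks equal folds. Cyc1 and Cox6a1 lie above the line among the highest genes, while Uqcrc2, Cycs and Cox4i2 lie below it.

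Replicate 1 gave the higher fold at 14 of the 21 genes, and at 59.3% of all occupied genes. The median distance between the summits of the replicates was 17 bp, beside 24 bp over all occupied genes, and at 18 of the 21 it was at most 100 bp. The exceptions were Uqcrc2 (135 bp), Uqcrfs1 (131 bp) and Cox4i1 (205 bp).

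Among the 8 occupied subunit genes of cytochrome c oxidase, Cox6a1 had the highest fold in both replicates. Cox6a1 encodes the form of subunit VIa used in most tissues (chromosome 5, span 115345652 to 115348958). Both replicates placed the summit 112 bp inside the start. The folds were 22.5 and 27.2 from 85 and 76 fragments, and 87.6% of all occupied genes had a smaller lower fold. Cox6c, the next of these 8 in both replicates, had folds of 20.01 and 15.2 and summits 401 and 393 bp inside its higher-coordinate end. Cox4i1, the ubiquitous form of the regulatory subunit IV, had 16.8 and 14.4 at a wide peak (1221 and 1176 bp) that also reached the ends of Emc8 and Gm27021.

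At the other occupied subunits replicate 2 was also the lower. Cox8a had 13.0 and 6.98, where the local backgrounds were raised to 3.16 and 4.87 fragments and the pileups were 53 and 40. Cox7c had 12.5 and 6.74, Cox5b had 11.8 and 6.20, and Cox7a2l, which acts in joining complexes III and IV into supercomplexes, had 10.02 and 7.96. The lower fold of each of these 4 was below the lower quartile of all occupied genes. Cox4i2, the isoform of subunit IV known from lung, was lowest of all, with 8.30 and 4.17. Its pileups were 25 fragments (95% Poisson interval 16.2 to 36.9) and 10 (4.795 to 18.4), and its −log10 q of 3.40 in replicate 2 was the weakest among the 21. It was no longer called at a minimum of 5 in both replicates for either the fold or the −log10 q, and each of these limits left 20 of 34 genes occupied, beside 48.8% of all genes for the fold and 50.1% for the q-value.

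None of the muscle isoform genes had a summit within 1 kb of an end in both replicates, and the lists hold no values outside called peaks. Cox6a2 (chromosome 7, 128205435 to 128206366) had a replicate 1 peak with a fold of 5.43, from 16 fragments, 382 bp inside its lower-coordinate end. Replicate 2 had no summit nearer than 31852 bp. Cox7a1 (chromosome 7, 30184171 to 30186030) had no summit of either replicate close by, the nearest lying 7976 and 7967 bp beyond its finish. Cox8b (chromosome 7, 140898942 to 140900446) had a replicate 1 summit with a fold of 4.79 that lay 1270 bp beyond its finish, the closest to the 1 kb limit of the summits that fell outside it. The nearest replicate 2 summit lay 16977 bp away. On the inner side of the limit, the gene with the most distant summits was Uqcrh, at 475 and 464 bp.

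Of the ubiquitous counterparts Cox6a1 and Cox8a were occupied, with the folds given above, and Cox7a2 was not. The listed start of Cox7a2 lies well inside its span, and a replicate 1 peak stood 76 bp downstream of that start, with a fold of 2.996 over a raised background of 8.68 fragments. Replicate 2 had no summit nearer than 33401 bp to the start. Peaks in both replicates were therefore found at 0 of 3 muscle isoforms and at 2 of 3 ubiquitous counterparts, beside 51.6% of all protein-coding genes. With 3 pairs this is a description of these genes. Lack of a call was not particular to the muscle isoforms, since Cox6b1 and Cox7b of complex IV were not occupied either. Cox5a also had no call by its span, but had peaks of both replicates 138 and 182 bp from its listed start. Without replicate 2, that is from replicate 1 alone, Cox6a2 was called, which made 1 of 3 muscle isoforms, beside 61.8% of all genes. A weak signal at the muscle genes would not have been detectable, since at the lowest background the smallest pileup called as a peak was 8 fragments in replicate 1 (fold 2.87) and 7 in replicate 2 (fold 3.03).

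The promoter windows of the isoforms show how they differ in letters. Those of the muscle genes Cox7a1 (chr7:30183921-30184220, plus strand) and Cox8b (chr7:140900397-140900696, minus strand) are printed with those of Cox8a (chr19:7217567-7217866, minus strand) and Cox6a1 (chr5:115348909-115349208, minus strand).
Cox7a1: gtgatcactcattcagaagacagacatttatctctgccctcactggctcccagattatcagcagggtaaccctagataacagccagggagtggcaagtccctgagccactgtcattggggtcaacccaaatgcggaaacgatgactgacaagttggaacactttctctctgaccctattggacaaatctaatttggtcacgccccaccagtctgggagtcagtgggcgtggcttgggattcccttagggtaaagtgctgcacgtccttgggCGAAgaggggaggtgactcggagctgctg
Cox8b: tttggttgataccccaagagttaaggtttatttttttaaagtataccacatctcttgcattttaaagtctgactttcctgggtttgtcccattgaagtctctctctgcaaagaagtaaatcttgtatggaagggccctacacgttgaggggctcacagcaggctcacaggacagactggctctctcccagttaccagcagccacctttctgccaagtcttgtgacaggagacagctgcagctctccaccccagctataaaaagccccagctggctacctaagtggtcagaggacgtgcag
Cox8a: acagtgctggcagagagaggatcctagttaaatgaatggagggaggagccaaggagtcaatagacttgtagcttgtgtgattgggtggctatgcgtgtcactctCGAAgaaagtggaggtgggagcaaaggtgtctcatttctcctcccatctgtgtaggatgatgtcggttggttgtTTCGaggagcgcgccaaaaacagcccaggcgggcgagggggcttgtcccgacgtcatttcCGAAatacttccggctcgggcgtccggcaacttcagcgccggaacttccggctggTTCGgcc
Cox6a1: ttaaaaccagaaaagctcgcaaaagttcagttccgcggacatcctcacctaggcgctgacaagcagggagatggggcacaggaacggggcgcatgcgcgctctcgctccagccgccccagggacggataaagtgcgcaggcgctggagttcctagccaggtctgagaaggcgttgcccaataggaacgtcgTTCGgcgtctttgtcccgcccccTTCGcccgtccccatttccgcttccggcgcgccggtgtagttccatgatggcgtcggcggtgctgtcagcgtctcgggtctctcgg

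The CpG content, as the observed count over that expected from the C and G letters, was 0.333 for Cox7a1 and 0.115 for Cox8b, against 0.833 for Cox7a2, 0.842 for Cox8a and 1.08 for Cox6a1. TTCG or CGAA occurred 1 time in the Cox7a1 window and 0 times in that of Cox8b. It occurred 1 time at Cox7a2, 4 times at Cox8a and 2 times at Cox6a1. The Cox8b window held a TATAAA and 2 CAGCTG motifs of the kind bound by myogenic factors, and no other window of the 24 held CAGCTG. Cox6a1 held 1 TGCGCA, part of the motif of NRF1, a regulator of respiratory genes, and 1 CCGGAAG, the core of ETS factor motifs. Cox8a held 2 of CCGGAAG and no TGCGCA. The ubiquitous Cox7a2 held neither, as did the muscle genes Cox7a1 and Cox8b. Cox6a2 was not among the windows used.

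Cox5a showed how the rule depends on the annotation. It encodes subunit Va and was not occupied by its span, which starts upstream of the listed transcription start. Its peaks lay 4042 and 4086 bp inside the lower-coordinate end of the span, but 138 and 182 bp downstream of the listed start at base 57521232 of chromosome 9. The pileups were 76 and 80 fragments, and the folds 13.6 and 30.7 over backgrounds of 4.67 and 1.64. In replicate 2 only Cyc1 among the 34 genes had a higher fold. With listed starts added to the span ends, 22 of 34 genes were occupied, beside 56.1% of all genes. The window of Cox5a (chr9:57520982-57521281, plus strand) held a single CGAA.
Cox5a: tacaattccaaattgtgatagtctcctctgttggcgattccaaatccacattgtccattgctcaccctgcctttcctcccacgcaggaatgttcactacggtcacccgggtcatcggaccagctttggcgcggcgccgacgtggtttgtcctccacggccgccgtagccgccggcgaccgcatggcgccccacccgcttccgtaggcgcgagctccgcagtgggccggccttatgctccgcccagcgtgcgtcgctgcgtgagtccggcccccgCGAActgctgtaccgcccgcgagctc

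The 2 remaining unoccupied subunit genes had no summit within 1 kb in either replicate. The nearest to Cox6b1, which holds the dimer of complex IV together, lay 7187 bp away with a fold of 4.47 in replicate 1 and 7792 bp away with 4.93 in replicate 2. At Cox7b, on the X chromosome, summits stood 4049 and 3922 bp upstream of the start with folds of 14.4 and 4.05.

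Genes for the assembly of complex IV divided into those with strong peaks in both replicates and those with a peak in replicate 1 only. Cox11, which acts in copper insertion, had folds of 18.9 and 19.7, with summits 114 and 105 bp inside the start and Stxbp4 within reach. Cox15, an enzyme of heme A synthesis, had 16.6 and 17.0. Its summits lay 68 and 61 bp outside the start, nearer to the end of Cutc, at 45 and 38 bp. Cox10, the other heme A enzyme, had a replicate 1 peak with a fold of 7.14, 125 bp inside its start. Cox17, the copper chaperone, had one with 11.4, 183 bp inside its lower-coordinate end, and the assembly factor Surf1 one with 9.42, 388 bp inside its higher-coordinate end. At these 3 genes replicate 2 had no summit within 1 kb, so heme and copper genes stood in both classes.

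**Figure D3:**
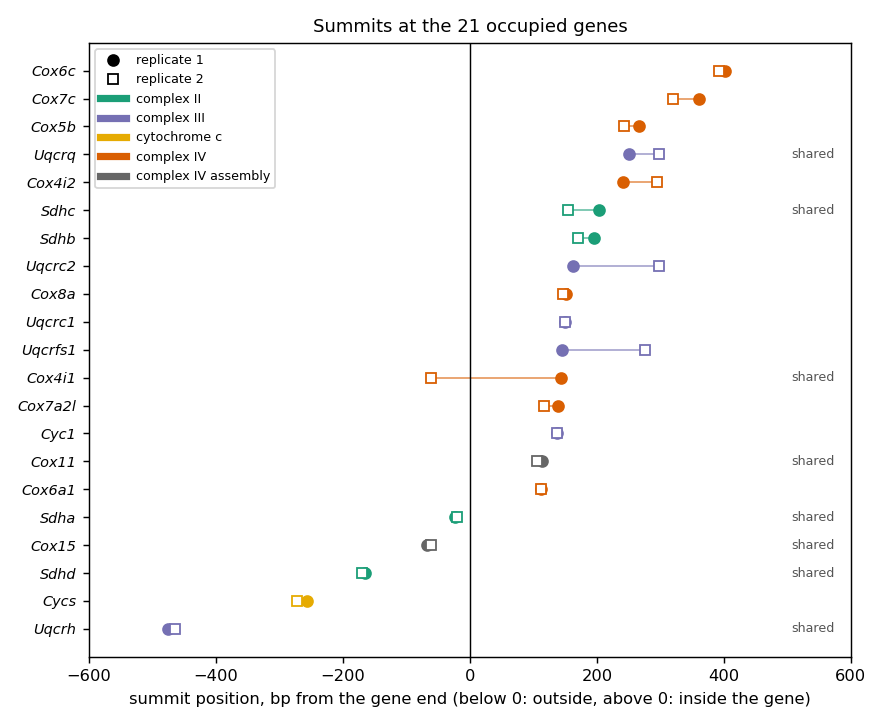
Position of the highest summit of each replicate relative to the occupied gene end, in bp, for the 21 occupied genes; values above 0 lie inside the gene, and "shared" marks genes with another protein-coding gene's end within 1 kb of both summits. Most summits lie inside the gene, and 4 of the 5 genes at the foot, whose summits lie outside in both replicates, share their peak.

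Where strand was listed, the occupied end with the higher peak was that of the start of transcription in 14 of 14 genes, beside 93.7% of all occupied genes with a listed strand. Uqcrc1 was also occupied at its finish, and for the other 7 genes the strand was not listed. Summits lay inside the gene at 16 of 21 genes in replicate 1 and 15 of 21 in replicate 2, at a median of 163 and 170 bp from the end, beside 196 and 193 bp over all occupied genes. Of the 24 genes with a listed start, 15 were occupied at it, beside 54.0% of all genes with one. Another protein-coding gene had an end within 1 kb of both summits at 8 of the 21 (38.1%), beside 22.9% of all occupied genes. Among them were Sdha, Sdhd, Uqcrq, Uqcrh, Cox4i1, Cox11 and Cox15, and at Sdhd, Uqcrq, Uqcrh and Cox15 the neighbour was the nearer in both replicates. When a peak counted only for the nearest gene end, these 4 and Cox4i1 lost their call and 16 of 34 genes were occupied, beside 46.7% of all genes.

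A replicate 1 peak without a replicate 2 partner was found at 6 genes, namely Uqcrb, Uqcr10, Cox6a2, Cox10, Cox17 and Surf1, and a replicate 2 peak without a replicate 1 partner at 0. Of all 21631 protein-coding genes, 13366 had a replicate 1 peak within 1 kb of an end. For replicate 2 it was 11308, and 11164 had both at the same end. The replicate 1 list was the longer, with 65606 peaks against 26503. The replicate 1 folds of the 6 respiratory genes ran from 5.43 to 11.4. All 15 of the genes with a replicate 1 fold of 12 or more were occupied, 8 of them with a fold under 18. Among all protein-coding genes 98.6% were occupied where the replicate 1 fold was 12 to 18 and 99.5% where it was 18 or more. With a fold of 9 to 12, 5 of 7 of the respiratory genes were occupied, beside 88.6% of all genes. From 6 to 9 it was 1 of 3, beside 53.2%, and below 6 it was 0 of 2, beside 15.1%. With replicate 1 alone 27 of 34 respiratory genes had a peak, beside 61.8% of all genes, and with replicate 2 alone 21 of 34, beside 52.3%. A 5 kb window brought the count in both replicates to 26 of 34, beside 61.1% of all genes, with Cox5a, Cox7b, Cox17, Surf1 and Uqcr11 added.

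**Figure D4:**
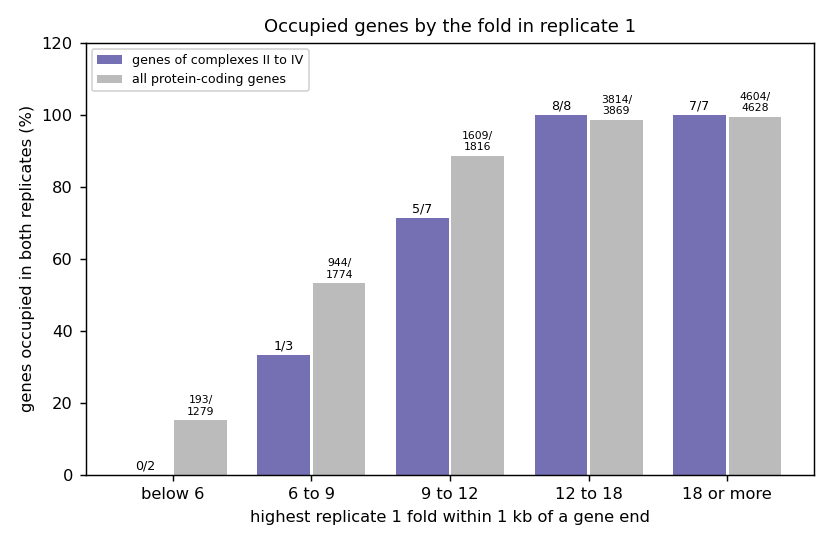
Percent of genes occupied in both replicates by the highest replicate 1 fold within 1 kb of a gene end, for genes of complexes II to IV and for all protein-coding genes, with counts above the bars. The share climbs from the lowest to the highest fold in both, and the respiratory genes number only 2 to 8 per bin.

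Promoter windows were listed for 24 of the 34 genes, and their CpG content was set beside occupancy. The median observed-over-expected CpG was 0.847 in the 24 windows, beside 0.574 in 21045 windows of all protein-coding genes. At a ratio of 0.6 or more, 14 of 19 starts were occupied in both replicates, beside 86.6% of all such starts. Below it 1 of 5 was occupied, beside 20.1%. The 5 were Sdhb, which was occupied, and Surf1, Cox7a1, Cox7b and Cox8b, which were not. Sdhb (0.571) and Surf1 (0.588) lay close to the cut. Unoccupied windows above it were those of Uqcr10, Uqcr11, Cox6b1, Cox7a2 and Cox10, with ratios from 0.773 to 0.962. The part of CpG content in the muscle isoform result was not tested. Neither was that of transcription or open chromatin, on which these lists hold no values.

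TTCG or CGAA, counted on both strands, occurred in 20 of the 24 windows, beside 49.4% of all windows. It was in 12 of 15 windows with an occupied start and in 8 of 9 of the others. The occupied genes without a match were Sdha, Sdhb and Cycs. Uqcrfs1 had 8 matches, Cox5b 6, and Cox8a and Cox11 4 each. CCGGAAG was found in 10 of 24 windows, beside 11.7% of all, and TGCGCA in 5, at Sdha, Sdhd, Uqcrc1, Cox5b and Cox6a1, beside 9.74%. AAGATGG, the core of the YY1 motif, was found at Cox7c and Cox10, beside 6.28% of all windows. CAGCTG stood at Cox8b, beside 15.7%. TATAAA stood at Cox8b and Cox10, beside 12.7%. A match describes the letters of the window and does not show a bound site. Among the occupied starts, only Sdha, Sdhd and Cox15 had the highest summits of both replicates inside the window. At the others 1 or both lay outside it, for example 112 bp downstream of the start at Cox6a1 and 361 and 320 bp downstream at Cox7c. The match counts are therefore not counts under the peaks.

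**Figure D5:**
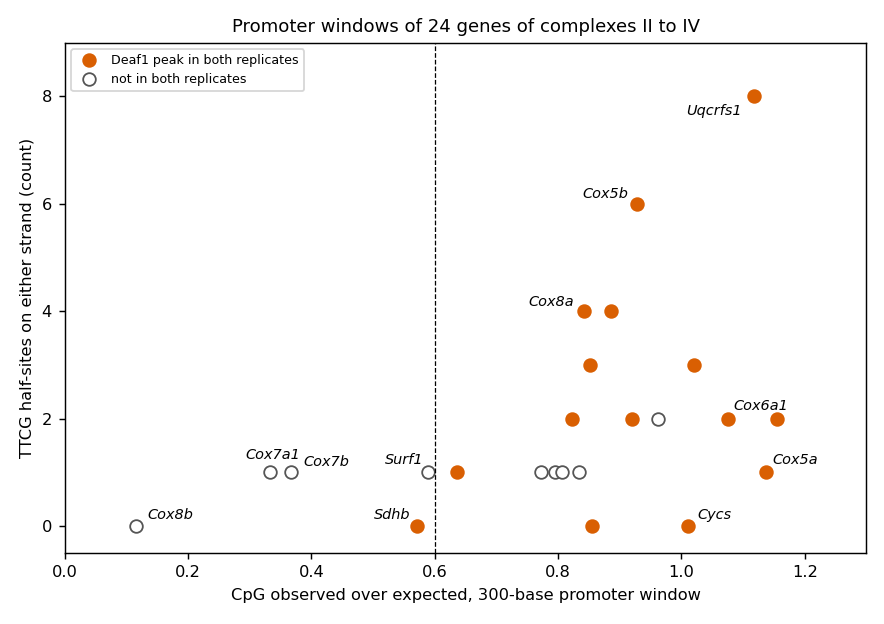
CpG observed over expected in the 300-base promoter window (horizontal) against the number of TTCG or CGAA motifs in it (vertical) for the 24 genes with a listed window; filled points had a Deaf1 peak in both replicates within 1 kb of the start, open points did not. Cox8b, Cox7a1 and Cox7b lie furthest to the left, and Uqcrfs1 stands highest with 8 motifs.

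Other genes of the respiratory chain, and those of ATP synthase, were occupied at these rates. Of 36 further genes for subunits and assembly of complexes II to IV, 26 (72.2%) were occupied, beside 61.8% of the 34 and 51.6% of all genes. Among them 17 of 20 assembly genes of complex IV were occupied, led by Higd1a with folds of 21.1 and 27.7, Cox18 with 21.9 and 24.3 and Pet117 with 21.1 and 23.7 at a peak shared with Kat14. Of the complex III assembly genes 3 of 6 were occupied. Complex I subunit genes were occupied in 26 of 36 cases, with Ndufv2 at 23.7 and 25.3, Ndufa13 at 22.7 and 28.1 and Ndufb2 at 17.3 and 16.7. ATP synthase genes were occupied in 13 of 17 cases, with Atp5h at 24.3 and 26.7, Atp5d at 23.6 and 26.5 and Atp5g2 at 18.5 and 23.3. The median folds at occupied genes were 14.0 and 11.6 for the 34 genes, 15.8 and 13.8 for the 36 further genes of complexes II to IV, 12.3 and 8.05 for complex I and 16.0 and 13.9 for ATP synthase. Differences between these groups were not tested.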

How the data were processed

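Deaf1 ChIP-seq peak lists of 2 replicates were used. BWA, MACS2 and the build mm10 are named in the submitters' processing notes. Their versions and settings, and which control the caller had, are not given in the sources used. The authors called peaks per sample and deposited for each a fold enrichment (a ratio), a −log10 p, a −log10 q and a score. Each summit's pileup and local background were worked out as the whole number of fragments that meets both the deposited fold, with 1 added above and below the line, and the deposited −log10 p of a Poisson count. The largest misfit in −log10 p was 4.07e-05, and the recovery was tested on simulated data. Coordinates are 1-based. Gene spans, transcription starts and promoter windows came from RefSeq (GRCm38.p6, the assembly behind mm10). Spans cover all RefSeq models, predicted ones included, and 10 of the 34 genes had no listed start, so their ends are named by coordinate. A neighbour was a protein-coding gene with an end within 1 kb of the summits of both replicates. A motif position matched on both strands counted once. Python 3.11.15, pandas 2.3.3 and SciPy 1.17.1 were used. The text names all 34 genes, neighbours sharing a peak, and the 3 genes of each further list with the highest lower fold; 1 neighbour is not reported here. Members, lists and motifs were chosen with earlier results of these data known. No test was made, since the data hold a single condition. Alternatives were other windows, thresholds, annotation and single replicates.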

Additional observations from a re-analysis of the deposited data

Results flagged for a closer look

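Replicate 2 had 3 peaks on the mitochondrial genome, which encodes further subunits of complexes III and IV, and replicate 1 had 0. They were singled out as signal outside the nuclear genes compared here. The first (13303 to 13465) had a fold of 1.87 and lay over ND5, and the second (13641 to 13854) had 1.93 and lay over ND6, both genes of complex I. The third (15432 to 15650) had 2.57 and lay over no listed gene, beyond the end of the cytochrome b gene at 15288. None of the 3 overlapped the cytochrome b gene or the complex IV genes for subunits 1, 2 and 3. Their local backgrounds ran from 28.2 to 43.9 fragments, beside 1.64 for the lowest of the list. Peaks of a control sample were not analysed here.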

How the results depend on the processing

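No paired analysis was possible because peak lists were used for the ChIP group alone. The count of occupied genes stayed within 1.5 times the 21 reported in all 13 alternatives, a wide margin for 34 genes. It ran from 15 of 24 at listed starts to 27 over the single replicates (21 to 27, the higher with replicate 1 alone). It was 26 with a 5 kb window, beside 61.1% of all genes, and 20 with a fold or −log10 q of 5 or more. Smaller groups moved further. The complex IV assembly genes went from 2 of 5 to 4 with a 5 kb window. They went to 5 with replicate 1 alone, beside 61.8% of all genes, and to 1 by the nearest gene end, beside 46.7%. Complex III went from 6 of 9 to 3 of 5 at listed starts, beside 54.0%. The count of muscle isoform genes was 0 of 3 or, at listed starts, 0 of 2, and over the single replicates it ran from 0 to 1. Listed starts added to span ends and the nearest gene end alone were chosen after seeing the data. Of the 21 occupied genes 15 kept their call in every alternative that could be applied to them. Of the 13 others 4 (Cox6b1, Cox7a1, Cox7a2 and Cox8b) stayed without a call in every one. Unknown read depth limits statements about genes without a peak.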
